A study of Mus musculus with 4 samples.

Results

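The response of control skeletal muscle to starvation was read as the ratio of array signals, starved over fed, in mouse gastrocnemius, a calf muscle made mostly of fast fibres. A probe set, the group of probes that reads 1 transcript, was included if it named 1 gene and its signal reached the 75th percentile of its array on at least 1 of the 2 control arrays. This held for 11057 of the 45037 probe sets other than array controls, which read 7315 of the 18193 genes that have a probe set of their own. The included probe set with the brightest mean signal stood for its gene. Genes were called up from a 1.5-fold higher starved signal, the threshold of the study's methods, and down from a 1.5-fold lower one. Just inside the limit lay a probe set of Nubp1, at 145.1 in fed and 94.5 in starved muscle, and just outside it one of Marcksl1, at 145 and 98.4.

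The mice were adult males of a cross of C57BL/6N and FVBN that carried floxed alleles of the transcription factors FoxO1, FoxO3 and FoxO4 (FoxO1,3,4 f/f) without Cre recombinase, so that these genes were intact, and the labels call them wild type. They had food and water ad libitum, or were starved for 24 h with water. RNA of the 6 gastrocnemius muscles of 3 mice was pooled per condition and hybridized to 1 array, as the methods state, although a legend of the study gives another number of muscles. The study also profiled mice in which a Cre driven by a fast myosin light chain promoter removes the same FoxO genes from muscle, and these arrays are used below only where named. With 1 pooled array per condition there is no replicate, no test and no SD between mice, and every ratio compares these 2 pools.

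In fasting, insulin falls and glucocorticoids rise, and skeletal muscle turns from glucose to fatty acids as fuel while it breaks down its own protein to release amino acids. Low insulin lets FoxO factors stay in the nucleus, where they switch on genes of the ubiquitin–proteasome and autophagy–lysosome systems, which degrade proteins and organelles. The mTORC1 kinase, which drives protein synthesis when amino acids and growth factors are plentiful, is restrained at the same time.

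Of the 7315 genes, 503 were up (6.88%) and 775 were down (10.6%). The ratio reached 2-fold in 175 genes up and 187 down, and 4-fold in 30 up and 27 down. The median log2 ratio over all genes was -0.11, with quartiles at -0.34 and 0.15, so that the middle of the distribution lay slightly below 0. Spike-in RNAs added before hybridization had ratios of 0.920 to 0.994. The balance of calls depended on how the arrays were scaled: 39.4% of calls were up with the signals as deposited, 49.4% with both arrays set to the same trimmed mean and 52.0% after quantile normalization. List medians below are to be read beside the median of -0.11, and list counts beside the 6.88% of all genes up and 10.6% down.

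**Figure D1:**
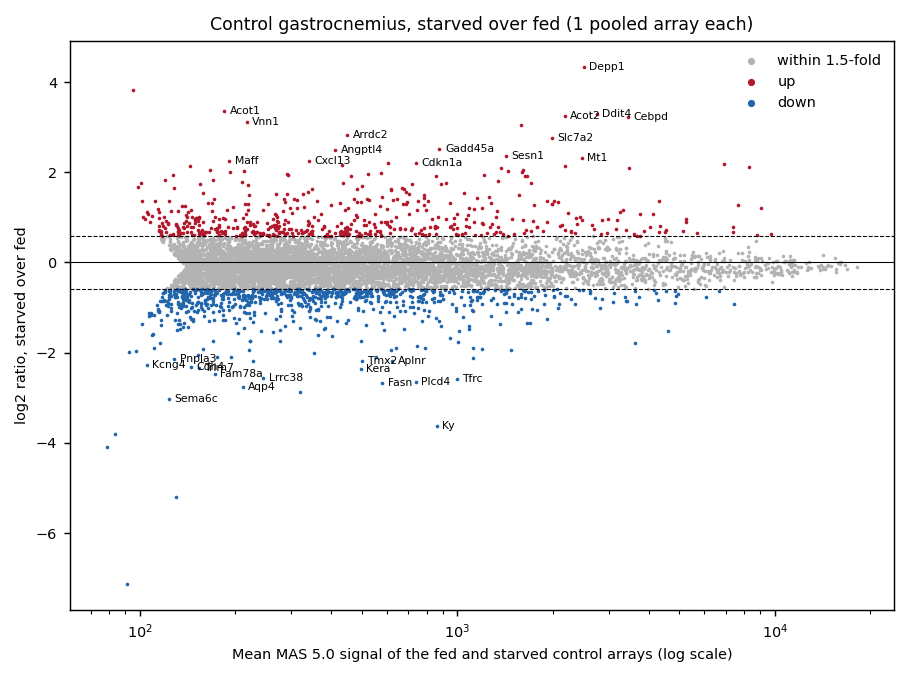
Log2 ratio of starved over fed signal (vertical axis) against the mean signal of the 2 control arrays (log scale) for the 7315 genes, with dashed lines at 1.5-fold. Depp1 rose most among the labelled genes, at a log2 ratio of 4.34, and Ky fell most, at -3.62; unlabelled points beyond these are genes of hair and skin or genes outside the naming rule.

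The promoters of a pair of genes that rose are shown first, because they carry a motif of the FoxO factors within the 250 bases upstream of the annotated start. Trim63 encodes MuRF1, a ubiquitin ligase that tags contractile proteins, and Pank1 encodes a pantothenate kinase of coenzyme A synthesis. The bases are from RefSeq for GRCm38.p6, and the capitals mark the motif GTAAACA, which in both lies on the strand opposite to the gene and so reads TGTTTAC. The Trim63 stretch is chr4:134314870-134315119 on the plus strand, with the motif starting at base -194 from the start of the transcript. The Pank1 stretch is chr19:34879456-34879705 on the minus strand, with the motif starting at -213.
Trim63: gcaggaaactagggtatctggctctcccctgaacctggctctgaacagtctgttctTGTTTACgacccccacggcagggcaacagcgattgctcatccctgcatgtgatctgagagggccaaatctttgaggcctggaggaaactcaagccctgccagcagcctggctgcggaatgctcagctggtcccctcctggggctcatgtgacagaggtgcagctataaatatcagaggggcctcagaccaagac
Pank1: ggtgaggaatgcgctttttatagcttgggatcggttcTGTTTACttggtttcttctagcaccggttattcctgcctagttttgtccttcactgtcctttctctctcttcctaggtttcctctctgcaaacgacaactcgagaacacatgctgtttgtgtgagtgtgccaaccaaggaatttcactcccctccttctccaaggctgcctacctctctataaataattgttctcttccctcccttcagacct

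Counting upstream bases only, these were 2 of the 79 named genes up that have a promoter in the table, out of 97 named genes up. In the longer windows used next, which add 50 bases after the start, 1 of the 2 Sesn1 promoters also held the motif. Over windows of 250 bases before to 50 after the start, the motif on either strand was in 3.57% of the promoters of genes up (19 of 532), 1.91% of genes down (15 of 784), 2.70% of genes neither up nor down (172 of 6381) and 3.65% of all 32851 promoters in the table. The share among genes up was close to that of all promoters. It was above the 2.68% of promoters of measured genes (206 of 7697), from which the genes up were drawn. This difference was not tested. The ATF4 motif TTGCATCA was in 0.752% of promoters of genes up (4 of 532), 0.658% of genes neither up nor down and 0.895% of all promoters. Exact palindromic glucocorticoid receptor sites (AGAACA and TGTTCT with 3 letters between) and PPAR repeats (AGGTCA and AGGTCA with 1 letter between) were too rare in these windows to compare, in 3 and 13 of all 32851 promoters and in 0 of the 532 of genes up. Near matches, such as tgaacagtctgttct beside the FoxO motif in the printed Trim63 stretch, were not counted. A match is a description of letters, and these windows leave out distant enhancers. Trim63 itself went from 4465.1 to 10852.6, a 2.43-fold rise, and Pank1 from 309.8 to 850.1 (2.74-fold) with its other probe sets at 170.6 to 464.1 and 46.7 to 244.6. In muscle without the FoxO genes Trim63 went from 3510.1 to 4759.1 (log2 ratio 0.44, against 1.28 in control muscle). There Pank1 rose from 189.6 to 733.2 (log2 ratio 1.95, against 1.46 in control muscle). Neither difference was tested.

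The largest rises joined regulators of growth arrest, lipid use and stress. Depp1, a FoxO target linked to autophagy, went from 234.8 in fed to 4760.7 in starved muscle, a 20.3-fold rise, and its other probe set from 255.8 to 3873.5. Ddit4, which encodes the mTORC1 inhibitor REDD1, went from 506.6 to 4986.4, and Cebpd, a transcription factor of the C/EBP family, from 664.9 to 6205.3. Sesn1, a sestrin that senses leucine and restrains mTORC1, rose from 461.3 to 2376.9, with log2 ratios between 2.30 and 2.37 on 3 probe sets. Gadd45a, a stress gene, rose from 261.9 to 1494.5 and the cell cycle inhibitor Cdkn1a from 264.4 to 1218.2. The acyl-CoA thioesterases Acot1 and Acot2 went from 32.9 to 335.6 and from 418.3 to 3942.1. These genes are near-identical copies, and a probe set of one may read the other. Vnn1, a pantetheinase that recycles a coenzyme A precursor, rose from 44.9 to 389.7. The alpha-arrestin Arrdc2 went from 111.5 to 786.6, the lipoprotein lipase inhibitor Angptl4 from 125 to 698.4, the metallothionein Mt1 from 824.7 to 4106.9, the chemokine Cxcl13 from 119.1 to 563.9 and the small Maf factor Maff from 66.9 to 315.9. Being past 1.5-fold on every included probe set was part of the rule that chose these genes. Acot1, Ddit4, Arrdc2, Gadd45a, Angptl4, Mt1 and Maff had only 1 included probe set each. Of these rises and the 15 falls that follow, 30 genes in all, 15 lay below the 75th percentile on the array where they were low, Acot1, Vnn1, Ky and Sema6c among them, so that they were included through their high array alone.

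The largest falls were of another kind. Ky, a protein of the Z-disc region whose loss causes kyphosis in mice, went from 1595.7 to 129.5, a ratio of 0.0812. Sema6c, a semaphorin found at the neuromuscular junction, went from 219.8 to 26.8, and Aqp4, the water channel of the fast fibre membrane, from 367.6 to 54.3. Fasn, the fatty acid synthase, fell from 1003.6 to 156.9 and Pnpla3, a lipase-like protein controlled by lipogenic signals, from 208.8 to 47.6. Tfrc, the transferrin receptor that brings iron into cells, went from 1706.9 to 282.9. Plcd4, a phospholipase C, fell from 1273.1 to 204.3 and Aplnr, the apelin receptor, from 1024.5 to 224. The channel genes Lrrc38 and Kcng4 went from 417.9 to 70.9 and from 174.1 to 36. Trim7, a ubiquitin ligase that binds glycogenin, fell from 256.6 to 50.6, against the direction of Trim63. The other members of the 15 were Fam78a (292.1 to 52.6), Kera (828.6 to 162.1), Cdh4 (240.9 to 48) and Tmx2 (821.7 to 180.5). Kera is a proteoglycan of tendon and is taken up again with the tendon markers.

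**Figure D2:**
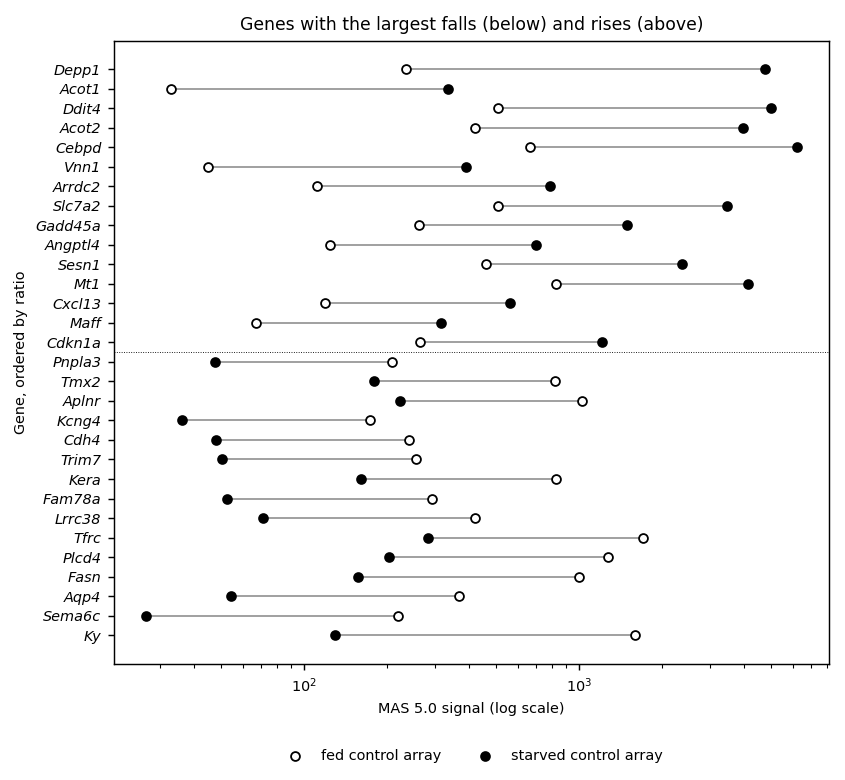
MAS 5.0 signal (horizontal axis, log scale) of the 15 largest rises and the 15 largest falls outside hair and skin markers, fed control array (open) and starved control array (filled), 1 pooled array each. Falls run from Ky, 1595.7 to 129.5, to Pnpla3, and rises from Cdkn1a to Depp1, 234.8 to 4760.7.

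Genes read by several probe sets give the only scatter in these data. The SD of the log2 ratio of a single probe set around its gene was 0.27 in the dimmest of 4 equal groups by signal and 0.18 in the brightest. Variation from mouse to mouse is not part of it. Of the 177 genes up that had several probe sets, 124 were past 1.5-fold on all of them, 46 had the same sign on all and 7 had a probe set of the other sign. Of the 216 genes down with several, the counts were 130, 78 and 8. Of the 826 genes with at least 3 probe sets, 30 were past 1.5-fold up on all of them and 21 down on all of them. Among these the largest median changes were rises: Slc7a2, a cationic amino acid transporter, had log2 ratios of 2.40 to 2.77 on 4 probe sets, and the brightest went from 508 to 3459.9. Eif4ebp1, the 4E-BP1 repressor of cap-dependent translation, had 2.09 to 2.35 on 3. Snhg1, a host gene of small nucleolar RNAs, had 1.80 to 2.04 and Rgs2, a regulator of G protein signalling, 1.58 to 1.64. Zwint, a kinetochore protein, had 1.31 to 1.96 on 4.

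A pair of genes had probe sets past 1.5-fold in opposite directions. Ank3, a membrane-anchoring ankyrin, rose on 3 probe sets (1819.9 to 2867.5 on the brightest) and went from 166.7 to 83.8 on the dimmest. Pde2a, a phosphodiesterase, was at 236 to 406.9 on one probe set, 878 to 1262.2 on the brightest and 202.7 to 120.2 on another. Which transcript forms these probe sets read was not analysed here.

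**Figure D3:**
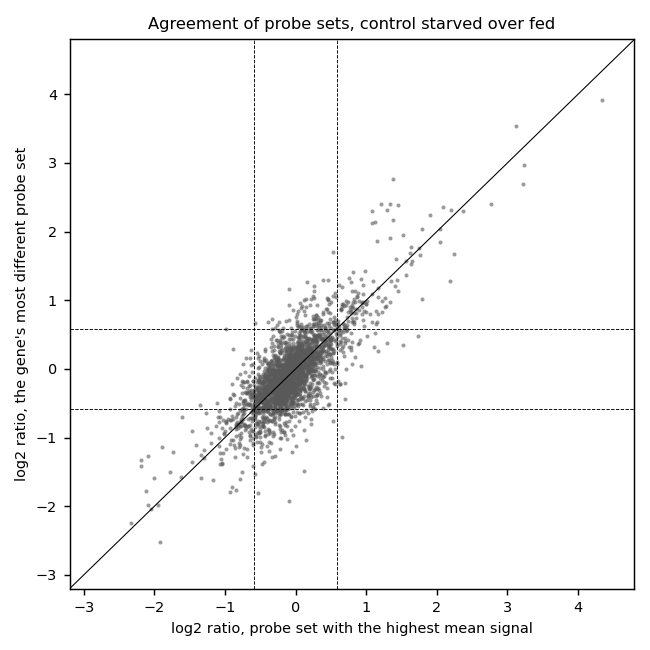
Log2 ratio, starved over fed, of each gene's brightest probe set (horizontal axis) against that of its most different probe set (vertical axis), for the 2525 genes with several; the line marks equality and dashed lines 1.5-fold. Most genes up or down kept their sign, but some lay far from the line, such as Zfyve1 (1.38 and 2.77) and Btg2 (1.73 and 0.48). Probe sets past 1.5-fold in opposite directions occurred in 2 genes.

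The genes were further grouped into 53 lists, which held 1228 of the measured genes, 151 of them up and 127 down. Upstream signals came first. Of 23 genes known to be induced by glucocorticoids 19 were up and 0 down, with a median log2 ratio of 1.36, against 6.88% of all genes up. All 23 had a ratio above 1 on the brightest probe set, but some were flat. Sgk1 was at 4614.1 and 4973.3, Dusp1 at 2276.9 and 2431.7, and Pik3r1 at 736.9 and 777.3. The 3 probe sets of Pik3r1 spanned log2 ratios of -0.19 to 0.33. Arrdc2 was included through the starved array alone, and the list's median ran from 1.16 to 1.43 under the alternatives. Fkbp5, a chaperone that restrains the glucocorticoid receptor, went from 408.7 to 1372.4 on its brightest probe set, Klf15, a factor that drives amino acid breakdown, from 351.9 to 939.5, and Per1, a clock gene that also answers to glucocorticoids, from 201.9 to 518.7. Tsc22d3, which encodes GILZ, rose 1.62-fold on its brightest probe set, and its 3 probe sets spanned log2 ratios of -0.43 to 0.90.

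Of 19 immediate early genes 13 were up and 0 down (median 0.77, and 0.62 to 0.88 under the alternatives). Maff and Myc were among those included through the starved array alone, where they were high. Fos went from 410.1 to 1157.6, Btg2 from 334.5 to 1109, the mRNA-destabilizing Zfp36 from 271.5 to 631.8, Klf2 from 312.7 to 649.2 and Myc from 89.2 to 193.9. Of 22 genes of growth arrest and p53 targets 10 were up and 3 down (median 0.52). Gadd45g rose from 632.9 to 2552.9 and Trp53inp1 from 726.8 to 1820.7, whereas Bcl6, a transcriptional repressor, fell from 1000.5 to 361.9 and Trp53inp2, an autophagy cofactor, from 1944.6 to 907.5. Some genes stand in several lists, Ddit4, Cdkn1a, Sesn1 and Btg2 among them.

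The insulin and IGF pathway list had 5 genes up and 3 down of 26 (median 0.19). Irs2, the adaptor of the insulin receptor, rose from 189.2 to 433.6, the IGF1 receptor gene Igf1r from 188.2 to 325.4 and the binding protein gene Igfbp3 from 233.9 to 564.9. Igfbp5, the binding protein made by muscle, fell from 5601.2 to 1629.2 and Grb14, which inhibits the insulin receptor, from 552.9 to 239.4. Foxo1 went from 303.8 to 554.4 (1.82-fold) and Foxo3 from 250.1 to 477.8 (1.91-fold), while Foxo4 was at 296.9 and 291.3.

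Circadian genes moved both ways, with 6 up and 2 down of 18. Cry2, a repressor of the clock, rose from 138.5 to 397.5, Nfil3 from 240.6 to 443.6 and Arntl, which encodes BMAL1, from 111.1 to 196.2, whereas Dbp, a clock output factor, fell from 1742.7 to 926.1 and Bhlhe40 from 1967.5 to 1212.3. The list's median was 0.11, and -0.10 over the 13 members that passed the filter on both arrays, of which 3 were up. The hour at which muscles were taken is not given in the sources used here.

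Several genes that bring in and burn fatty acids rose. Of 16 genes of fatty acid uptake and activation 6 were up and 0 down (median 0.31), and with the filter on both arrays, which leaves out Acot1 and Angptl4, 4 of 14 were up (median 0.14). Cd36, a fatty acid transporter, went from 3155.2 to 5513.9 and had log2 ratios of 0.74 to 0.83 on 3 probe sets, and Fabp3, which binds fatty acids in the cytosol, went from 7628.2 to 11795.8. Of 25 genes of fatty acid oxidation 5 were up, 0 down and 21 had a ratio above 1 (median 0.23). Mlycd, which removes the malonyl-CoA that blocks fatty acid entry into mitochondria, rose from 460.1 to 1105.4. The carnitine shuttle genes Cpt1a and Slc25a20 rose 1.69-fold and 1.55-fold. Acacb, which makes that same malonyl-CoA, also rose, from 624 to 1077.4.

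Lipid droplet genes moved both ways, with 6 up and 4 down of 21. The rises were Pnpla2, the triglyceride lipase ATGL (1124.4 to 2904), the droplet coat genes Plin5 (274.5 to 690.9), Plin4 (1143.9 to 2817.9) and Cidec (353.7 to 747.9), and the phosphatidate phosphatases Lpin1 (2177.8 to 4196.3) and Lpin2. Cidec and Plin4 are also made by adipocytes, whose 9 markers on the array summed to 35528 fed and 35808 starved. Car3 (16692.9 to 14500.6) and Fabp4 (13375.9 to 14974.7) made up most of that sum. Of the 9 markers 6, Cidec itself among them, were higher in starved muscle and 3 were lower. G0s2, the inhibitor of ATGL, fell from 1769.9 to 476.4, beside Pnpla3, Agpat2, an acyltransferase of triglyceride synthesis, and Fitm1, which helps droplets form.

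Fatty acid and sterol synthesis had 10 genes down and 1 up of 21, and 20 had a ratio below 1 (median -0.58, against 10.6% of all genes down). Srebf1, the master regulator of lipogenesis, fell from 874.1 to 385.5 and its partner in carbohydrate sensing Mlxipl from 522.8 to 307.4. Thrsp, a nuclear protein of lipogenesis, went from 1821.1 to 419.7, Scd2, a desaturase, from 1245.3 to 505.7 and Acly, which makes cytosolic acetyl-CoA, from 1002.1 to 459.1. Scd1, another desaturase, was within 1.5-fold on its brightest probe set (9966.2 to 8160.9), and its other probe set went from 271.4 to 113. Idi1 and Fdps of the sterol pathway fell to ratios of 0.469 and 0.507, whereas Fdft1, the squalene synthase, rose from 1534.2 to 2722.9. The RNA also held transcripts of adipocytes, whose markers are given above, and their part in these falls was not tested.

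A few glucose genes were up or down, to be read beside the 6.88% of all genes up and 10.6% down. Of the genes of glucose uptake and glycogen 27.8% were down and 5.56% up. The shares were 11.8% each way in glycolysis, from 2 genes each. They were 9.09% each way in the pyruvate dehydrogenase list, from 1 gene each. Pdk4, the kinase that shuts off pyruvate dehydrogenase, rose from 3111.8 to 13494.9, and Pdp1, the phosphatase that reopens it, fell from 1324 to 656.7, while 9 others of 11 in that list were neither. Of 17 glycolytic genes 2 were up and 2 down (median -0.28), with Hk2, the insulin-responsive hexokinase, at 3434.7 to 1995.9 and Fbp2, the muscle fructose bisphosphatase, at 420.6 to 1087.7. Of 18 genes of glucose uptake and glycogen 5 were down and 1 up. Pgm1, Phkg1, Stbd1 and Gbe1, all of glycogen metabolism, fell to ratios of 0.526 to 0.628, and Tbc1d4, which controls glucose transporter traffic, rose from 115.5 to 326.

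No gene of the citric acid cycle (18 measured) or of the oxidative phosphorylation subunits (79 measured) was up or down. Their medians were -0.19 and -0.20, a little below the -0.11 of all genes. Only 4 of the 18 and 13 of the 79 lay above that all-gene median, and 75 of the 79 subunits had a ratio below 1. By complex the medians were -0.21 for complex I (33 genes), -0.29 for II (4), -0.23 for III (12), -0.16 for IV (12) and -0.17 for V (17), beside cytochrome c, Cycs, at -0.11. The extremes were Ndufb1, at 151.9 and 103.6, and Ndufs8, at 5470 and 6056.2 on the probe set with the highest mean. The other 4 probe sets of Ndufs8 were lower after starvation, 1 of them past 1.5-fold (4073.3 to 1993.2), and the median of its 5 log2 ratios was -0.31. Among the regulators of oxidative metabolism 3 of 14 were down and 1 up: Ppargc1b, the coactivator PGC1-beta, fell from 416.6 to 157.1 and Rxrg, a retinoid receptor, from 501.8 to 209.1. Prkag3, the AMPK subunit of glycolytic fibres, fell from 2341.4 to 612.4, in a list of AMPK and related kinases with 2 down and 1 up of 11.

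**Figure D4:**
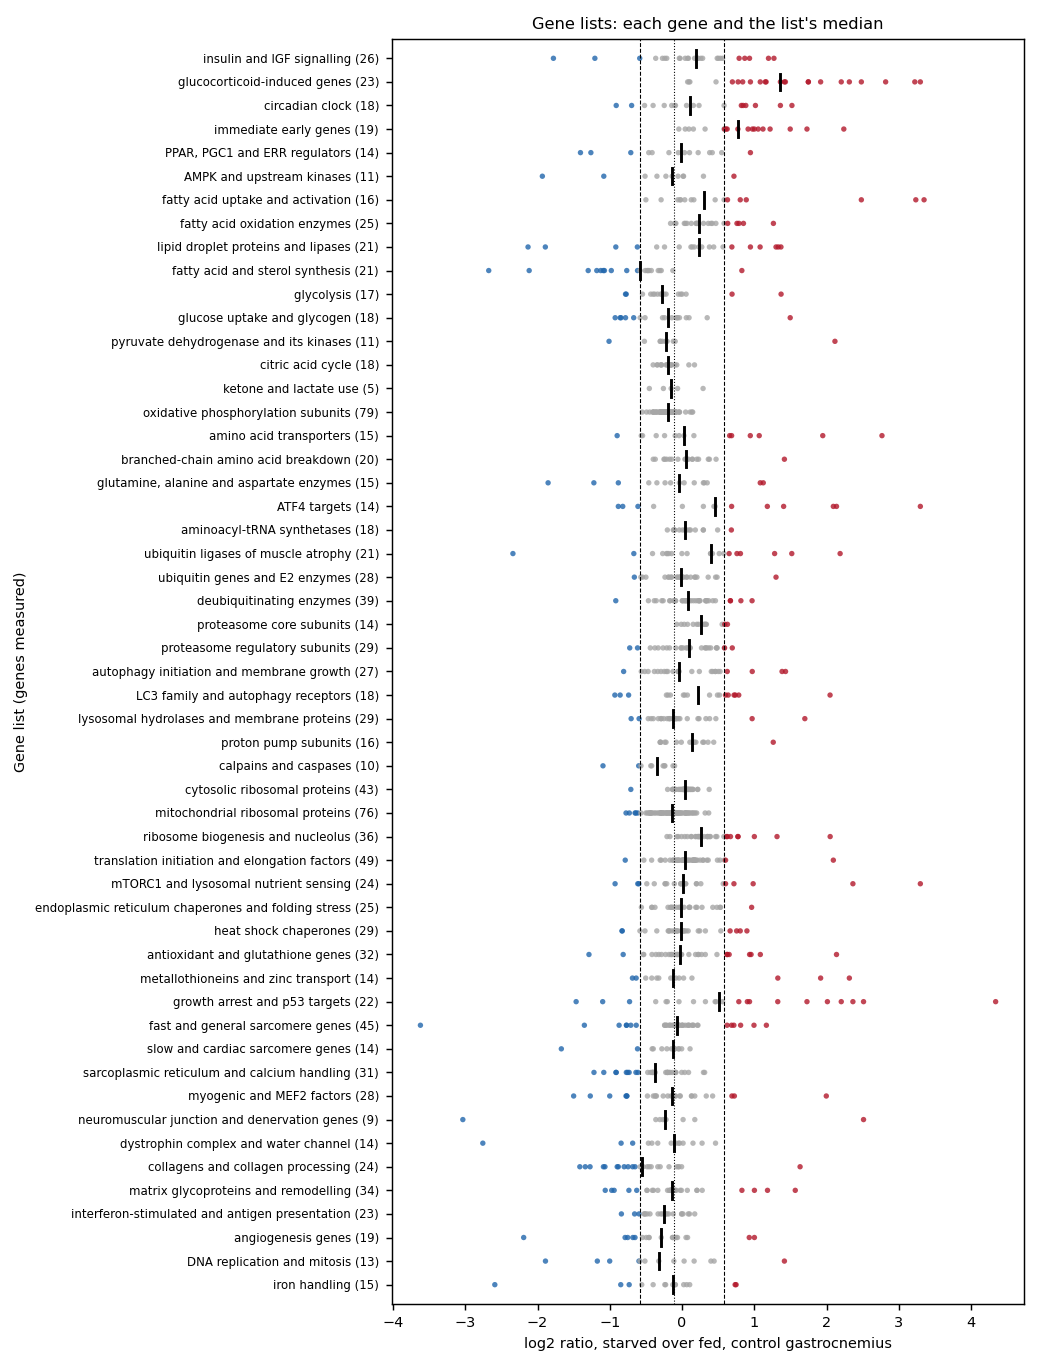
Log2 ratio, starved over fed, of each measured gene (points, red up and blue down at 1.5-fold) in the 53 gene lists, with the list's median as a black bar, the median of all genes dotted (-0.11) and 1.5-fold dashed. Glucocorticoid-induced genes have the highest median (1.36) and fatty acid and sterol synthesis the lowest (-0.58), and all oxidative phosphorylation subunits lie within 1.5-fold.

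Some protein breakdown genes rose, to be read beside the 6.88% of all genes up and 10.6% down. Near or below that share up were ubiquitin genes and E2 enzymes (3.57%), proteasome regulatory subunits (6.90%), lysosomal genes (6.90%) and the proton pump (6.25%). Of 21 ubiquitin ligases linked to atrophy 6 were up and 2 down (median 0.39). Fbxo32, which encodes atrogin-1, went from 2485.4 to 11326.4 on the brightest probe set, and its 3 probe sets spanned log2 ratios of 1.28 to 2.90. Fbxo30, the ligase MUSA1, rose from 150.6 to 431.6 on its brightest probe set, with 3 probe sets at 0.34 to 1.52, and was not called with the probe set of highest fed signal. Fbxo31, Ubr4 and Cblb rose 1.69-fold, 1.75-fold and 1.57-fold. Among ubiquitin genes and E2 enzymes 1 of 28 was up and 1 down, the rise being Ube4a (124.1 to 305.7), an E4 ligase. Of 39 deubiquitinating enzymes 4 were up and 1 down, with Zranb1 at 718.1 to 1405.7.

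Proteasome core subunits had 2 of 14 up and 0 down, and 12 had a ratio above 1 (median 0.27). The rises were Psma1 (2218.3 to 3428.6) and Psma5 (2928.4 to 4410.9). The regulatory subunits had 2 up and 2 down of 29 (median 0.10), Psmd4 being up (1744.7 to 2824.5) and Psme1, of the interferon-linked cap, down (1112.8 to 673.2). The calpains and caspases had 2 down, 0 up and all 10 below a ratio of 1 (median -0.34).

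Autophagy genes moved in part. Of 27 genes of initiation and membrane growth 4 were up and 1 down (median -0.05, and positive, up to 0.03, under 2 other array scalings). Ulk1, the initiating kinase, rose from 424.5 to 1145.7, its partner Atg13 from 120 to 235.3 and Zfyve1, a marker of sites where autophagosomes form, from 173 to 451.6. Atg101, another partner of Ulk1, fell from 233.4 to 133.2. Of 18 genes of the LC3 family and receptors 6 were up and 3 down (median 0.23). Gabarapl1 went from 626.6 to 2592.7, and the receptor genes Bnip3 and Sqstm1 rose from 5406.6 to 9312.6 and from 2022.5 to 3370.8, whereas Pink1, a kinase of mitophagy, fell from 3085.2 to 1618.3. Lysosomal genes had 2 up and 2 down of 29 (median -0.12), with Ctsl, a cathepsin, at 3536.6 to 6927.2 and the cholesterol exporter Npc1 at 235.8 to 765.9. The proton pump had 1 of 16 up, Atp6v1h.

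Amino acid transporters had 6 up and 1 down of 15, with a median of 0.03, and -0.07 over the 10 members that passed the filter on both arrays, of which 3 were up and 0 down. Besides Slc7a2, Slc43a1 rose from 120.5 to 464.9, Slc15a4 from 139.6 to 292.7 and Slc7a6 from 136.5 to 262.7, while the mitochondrial ornithine carrier Slc25a15 fell from 234.8 to 125.9. Branched-chain amino acid breakdown had 1 of 20 up and 0 down, the rise being its regulator Klf15 rather than an enzyme. Glul, which makes glutamine, rose from 2646.6 to 5604.2 and Odc1, the first enzyme of polyamine synthesis, from 2051.2 to 4470.5, whereas Smox, which oxidizes spermine, fell from 1172 to 323.9 and Psph of serine synthesis from 311.3 to 133.5.

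Targets of the stress factor ATF4 also split, with 6 up and 3 down of 14 (median 0.45). With the filter on both arrays 5 were up and 3 down of 12. Chac1, which degrades glutathione, went from 805.8 to 3547.2 and Ppp1r15a, which encodes GADD34, from 258.4 to 684.8, while Ddit3, which encodes CHOP, fell from 418.5 to 236.8. Only 1 of 25 chaperone and folding stress genes of the endoplasmic reticulum was up, Dnajb9 (2021 to 3939.5), and 0 were down. Of 29 heat shock chaperones 4 were up and 2 down. Both of these list medians lay at -0.01 to -0.02 and changed sign with the scaling.

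Genes of the translation machinery had few calls. Of 43 cytosolic ribosomal protein genes 0 were up and 1 was down (median 0.04), and of 76 mitochondrial ribosomal protein genes 0 were up and 5 down (median -0.14). Ribosome biogenesis had 8 up and 0 down of 36, and 31 had a ratio above 1 (median 0.26), with 5 up of 29 under the filter on both arrays. Taf1d, a factor of RNA polymerase I transcription, rose from 64.8 to 268.4, Gnl3, which encodes nucleostemin, from 543.4 to 1351.5 and Tsr1 from 427.8 to 856. Of 49 translation factors 2 were up, Eif4ebp1 among them (1316.3 to 5621.3), and Eif4e, the cap-binding protein that it represses, fell from 2064.8 to 1196.5. Of 24 mTORC1 and nutrient-sensing genes 5 were up and 3 down, the rises including the GTPase activator Flcn (580.9 to 955.6) and the falls Lamtor1 of the lysosomal anchor (1571.5 to 826.1).

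Antioxidant and glutathione genes had 7 up and 2 down of 32, with Gclm, of glutathione synthesis, at 451.1 to 955.9, Srxn1, which repairs peroxiredoxins, at 178.9 to 346.9, and Gsta4, a glutathione transferase, at 431.4 to 176.5. The list's median was -0.03 and positive under 2 array scalings. Metallothioneins and zinc transport had 3 up and 2 down of 14, Mt2 rising from 681.1 to 2574.6 and the zinc importer Slc39a14 from 93.6 to 234.6. Of 15 iron genes 3 were down (20%) and 2 up (13.3%), beside 10.6% and 6.88% of all genes. Besides Tfrc, the hemojuvelin gene Hjv fell from 4375.7 to 2428.7 and the iron exporter Slc40a1 rose from 475.7 to 791.5.

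Transcripts of the main contractile proteins were little changed. Protein was not measured on these arrays, and the study reports less myosin protein in fasted control muscle. All 12 markers of fast fibres passed the filter and summed to 169486 fed and 156415 starved, with 1 call, the fall of the calcium store protein Casq1 (9694 to 5135.4). Signals this high lie at the top of the arrays' range, and whether they were saturated was not tested. Of 45 sarcomere genes 6 were up and 7 down (median -0.07), which is 13.3% and 15.6%, beside 6.88% and 10.6% of all genes. The rises included the stress-responsive ankyrin repeat genes Ankrd1 (116.1 to 260.7) and Ankrd2 (1583.7 to 3157.6) and Csrp3 (3300.5 to 5305.5), and the falls, besides Ky, Synpo2l (1951.4 to 763.9) and Smyd1 (2348.9 to 1435.9), a methyltransferase of sarcomere assembly. Among 14 slow and cardiac genes 0 were up, and Mybph fell from 1447 to 454.1.

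Sarcoplasmic reticulum and calcium handling had 9 down and 0 up of 31, and 27 had a ratio below 1 (median -0.37). With the arrays set to the same trimmed mean 7 were down. Jph2, which ties the reticulum to the surface membrane, fell from 1195.3 to 513.1, Stac3, of the calcium channel complex, from 2732.4 to 1453.1, and the store-operated entry genes Stim1 and Orai1 from 947.5 to 554.9 and from 638.6 to 384.2. The kinase gene Camk2a fell from 1340.9 to 632.5, with log2 ratios of -1.08 to -0.77 on 3 probe sets.

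Of 28 myogenic and MEF2 factors 6 were down and 3 up. Mef2c fell from 3741 to 1868.2, with log2 ratios of -1.07 to -0.91 on 5 probe sets, Smad3, which carries the myostatin signal, from 869 to 306.9 and Myod1 from 241.6 to 100.1, while Myf6 rose from 2564 to 4234.9 and Tgif1, a repressor of Smad signals, from 77.2 to 308.1. Of 9 neuromuscular junction and denervation genes 1 was up, Gadd45a, and 1 down, Sema6c. Each is 11.1% of that list, beside 6.88% of all genes up and 10.6% down. The dystrophin complex had 3 down of 14, including Cav3, the caveolin of muscle (767.4 to 427.4), and Aqp4.

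Collagen and tendon genes were lower in starved muscle, while the summed markers of nerve, fat and endothelium were close to their fed level, at ratios of 1.02, 1.01 and 0.970. The fat sum rests mostly on Car3 and Fabp4, which moved in opposite directions. The nerve sum rests mostly on Mbp (2804.2 to 3000.4) and Pmp22 (2873.4 to 2779.7), and 6 of the 10 nerve markers lay below the cutoff on both arrays. In RNA of whole muscle, fewer cells of a type and less RNA per cell cannot be told apart. Collagens and their processing enzymes had 11 down and 1 up of 24, and 23 had a ratio below 1 (median -0.56). Col1a1 fell from 641 to 265, Col3a1 from 6296.2 to 3377.6, Col6a2 from 1294.5 to 485.1 and the collagen chaperone gene Serpinh1 from 827.8 to 326.9, whereas Lox, which crosslinks collagen, rose from 331 to 1027.2. The 12 fibroblast markers summed to 52281 fed and 43980 starved, with 4 down (Col1a1, Col3a1, Lum and Mfap5), all of them matrix genes themselves. The 9 tendon markers were all lower, at 10744.8 and 6642 in sum, with Tnmd at 1555 and 460.7. Their part in the collagen falls was not tested.

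The matrix list had 5 down and 4 up of 34 (3 and 3 of 31 with the filter on both arrays). These are 14.7% down and 11.8% up, beside 10.6% and 6.88% of all genes. The rises included Ccn1 (348.5 to 1032.7) and Ccn2 (689.4 to 1565), both secreted matrix signals. Angiogenesis genes had 5 down and 2 up of 19, Kdr, the VEGF receptor, falling from 368.1 to 218.4, while the 13 endothelial markers summed to 5788.4 and 5617.1. The interferon and antigen presentation list had 3 down and 0 up of 23, near the share of all genes. The 13 macrophage markers summed to 8824.4 and 7865.9, with 3 down and 1 up: the complement gene C1qc went from 460.5 to 266 and the scavenger receptor gene Cd163 from 358.3 to 555.3, while C1qb, at 660.8 to 371.9, had log2 ratios of -0.83 to -0.13 over its 3 probe sets. The 10 neutrophil markers summed to 302 and 605.4, with 1 past the filter, S100a8 (69.5 to 177.6). The immunoglobulin gene Ighm, at 2422.5 and 953.5, made up most of the lymphocyte sum of 2717.2 and 1241.5. DNA replication and mitosis had 4 down and 1 up of 13, Ccnd1 falling from 317.6 to 140.8, and Hmgb2 rising from 166.9 to 445.6. With the filter on both arrays, which leaves out Aurka (174.4 to 47) and Mcm2 (193.9 to 96.8), 2 of 10 were down and the median moved from -0.32 to -0.04.

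Genes of hair and skin, which muscle does not make, also differed between the arrays. The 26 hair shaft markers on the array summed to 1947.9 fed and 303.5 starved in control muscle, and 25 were lower after starvation. In knockout muscle the sums were 303.3 fed and 3712.1 starved, the opposite order. Only 4 passed the filter, and all were down: Krt25 went from 252.9 to 6.9 and S100a3 from 180.9 to 1.3. The 24 epidermal markers summed to 909.2 and 2060.2, and the 5 that passed were all up, Krt10 from 200.6 to 349.4 among them. Without these genes 498 genes were up and 771 down. The largest changes named above were chosen outside these markers, and Krt25 and S100a3 had smaller ratios than Ky. Their part in other ratios was not tested.

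**Figure D5:**
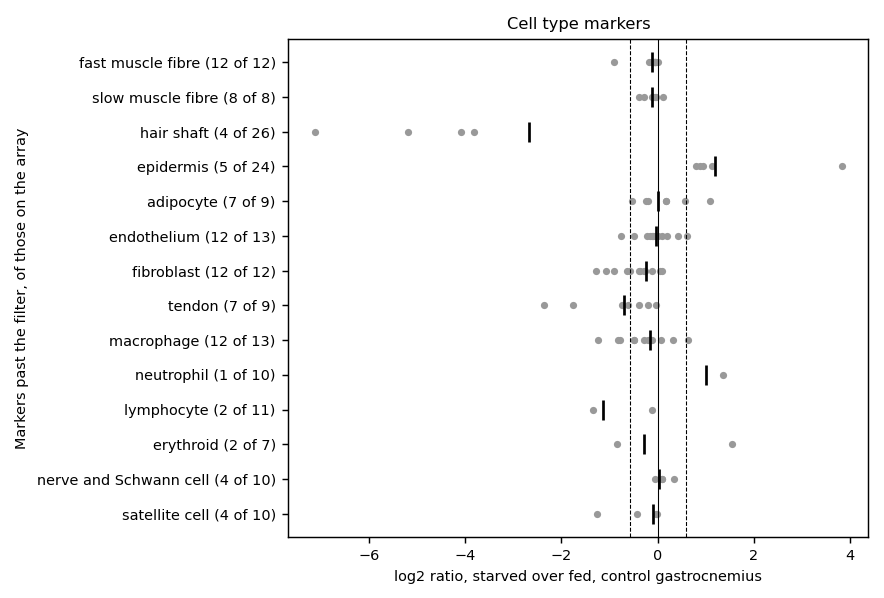
Log2 ratio, starved over fed, of the cell type markers that passed the filter (grey points) and of the summed signal of all markers of the type on the array (black ticks), with dashed lines at 1.5-fold. Fast fibre markers lie near 0 except Casq1, tendon markers lie below 0, and hair shaft and epidermis markers lie far apart on opposite sides.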

How the data were processed

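The values analysed are those the authors deposited: signal intensity per probe set on a linear scale, made with MAS 5.0 on Affymetrix mouse genome arrays, and the submitters' processing notes name MAS5 and Affymetrix Expression Console. Neither the target to which arrays were scaled nor detection calls are stated in the labels or methods. Each array holds the pooled RNA of 6 muscles of 3 mice. No further scaling was applied. The 75th percentile of signal was 145.1 on the fed and 136.3 on the starved control array, and precision is limited by having 1 array per condition.

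Of 45037 probe sets, 34945 have 1 gene in the platform annotation, 932 have several and 9160 have no entry. For 34741, the gene identifier gave a current symbol. Of the probe sets kept, 9682 passed on both arrays, 699 only on the fed and 676 only on the starved array. Several rises named in the lists passed only on the starved array, such as Maff, Myc, Arrdc2, Atg13, Tgif1, Tbc1d4 and Slc39a14. Ratios and log2 ratios were computed with pandas 2.3.3 and numpy 2.4.6 under Python 3.11.15, with plots by matplotlib 3.10.9. No test was run, since each condition has 1 array. Promoters were matched by symbol for 5961 of the 7315 genes.

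Genes named are the 15 largest rises and falls with symbols other than clone names, outside hair and skin markers, on which all included probe sets lay past 1.5-fold, up to 3 of the highest and 3 of the lowest in each list, the FoxO genes, the 8 largest median changes over at least 3 probe sets, and genes whose probe sets opposed each other; list members between those extremes, and marker genes, were chosen as examples after their values were seen. The members and lists were chosen with earlier results of these data known. Alternatives were array scaling, the filter, the choice of probe set per gene, an offset of 50 and a 2-fold threshold, and counts without hair and skin genes were added after the data were seen.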

Additional observations from a re-analysis of the deposited data

Results flagged for a closer look

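In 4 named genes the control arrays and the knockout arrays changed past 1.5-fold in opposite directions on starvation. The difference was not tested, since each condition has 1 array. Fos had a log2 ratio of 1.50 in control muscle and went from 675.6 to 274.9 in knockout muscle (-1.30). Rgs2 had 1.64 in control muscle and went from 238.1 to 156.9 in knockout muscle (-0.60). Pfkfb3, a glycolytic regulator, had 0.69 in control muscle and went from 358.5 to 184 in knockout muscle (-0.96). Mcm2, of the DNA replication helicase, had -1.0 in control muscle and went from 66.5 to 159.8 in knockout muscle (1.26), signals that are low on both pairs of arrays.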

How the results depend on the processing

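With the 50th percentile as filter, 1043 genes were up and 1676 down, because 12090 genes were measured, and at a 2-fold threshold 175 were up and 187 down. Under the other alternatives, namely 3 array scalings, the filter on both arrays, the choice of probe set per gene, an offset of 50 and the removal of hair and skin genes, the counts ran from 364 to 625 up and from 547 to 791 down. The filter on both arrays left 364 up and 547 down, of 6498 genes. Array scaling moved the balance of calls: setting both arrays to the same trimmed mean gave 600 up and 614 down, and quantile normalization 625 and 578, and no named gene that was up or down changed sign under any alternative. Of the named genes, 24 crossed the threshold in either direction when a gene's probe sets were averaged and 20 under quantile normalization. Of the genes given above as up or down, averaging probe sets took Ank3, C1qb, Psma5, Psmd4, Slc25a20 and Tsc22d3 under 1.5-fold. The brightest fed probe set took Fbxo30 (log2 ratio 0.34), the offset took Cblb, Lpin2 and Psma5, the trimmed mean Fitm1 and Mfap5, and quantile normalization Gbe1. The cause was not tested. No paired analysis was possible because each condition has 1 array. Signals near the 75th percentile have a larger scatter between probe sets than bright ones, which limits the calls made there, and the pools hold no measure of differences between mice.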
